A study of Rattus norvegicus with 6 samples.

Results

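A set of 8 genes that carry sugars or urate across kidney cell membranes were measured in the renal cortex of rats given dipropylene glycol (DPG), a glycol solvent, and of rats given water. They were chosen by name, as 3 sodium-coupled transporters of the Slc5 family (Slc5a1, Slc5a2 and Slc5a10) and 5 facilitative transporters of the Slc2 family (Slc2a1, Slc2a2, Slc2a4, Slc2a5 and Slc2a9). Each of the 8 genes had at least 1 probe on the array, matched by its RefSeq transcript accession, and 16 of the 61537 probes that are no array controls belonged to them. The animals were male Sprague-Dawley (Crl:CD(SD)) rats bought at 5 weeks of age. The control group of 3 rats had water for 4 weeks, and the DPG group of 3 rats had DPG at 1000 mg/kg/day for 4 weeks. Total RNA of the renal cortex of each rat was labelled with Cy3 and hybridised to a one-colour Agilent array of its own, so n = 3 per group throughout.

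The kidney filters glucose freely and takes nearly all of it back in the proximal tubule. At the luminal brush border the sodium-coupled cotransporters of the Slc5 family drive sugar into the cell against its gradient, and facilitative Slc2 carriers let it leave across the basolateral membrane to the blood. The convoluted first part of the tubule uses a high-capacity pair, Slc5a2 (SGLT2) and Slc2a2 (GLUT2), and the straight last part a high-affinity pair, Slc5a1 (SGLT1) and Slc2a1 (GLUT1).

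Values are log2 of the background-subtracted spot signal minus the 75th percentile of the same array, so that 0 is the signal of a probe at that percentile. Signals of different probes are not comparable, so no order of abundance among the genes is given. All 16 probes passed the filter on dim probes, and 15 of them were well above background on all 6 arrays. Between 39556 and 43184 probes per array were well above background, with the fewest in control 3, which also had 34 probes with an outlier flag. Pearson correlations across features were between 0.991 and 0.993 among the control arrays and between 0.992 and 0.994 among the DPG arrays. The file headers place the controls together on 1 slide, read in 1 scan run, and the DPG rats on a second slide with its own run, so treatment cannot be told apart from slide or scan in any value below. The labels name separate animals as replicates. Precision is limited by having 3 arrays per group. In whole cortex, a lower signal from fewer cells of a type and one from less RNA per cell cannot be told apart either.

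The comparison asked which cortical sugar transporter signals were different after DPG than after water. The signal of Slc2a1 was higher in DPG by 0.45 on the log2 scale (1.37-fold), and those of Slc2a2 and Slc5a2 were lower by -0.40 and -0.29 (1.32-fold and 1.22-fold). These 3 genes were past an unadjusted p of 0.05 in limma's moderated test, against 12.4% of the 29647 features tested, a feature being a gene or a transcript identifier represented by its brightest probe. None of the 8 passed after Benjamini-Hochberg adjustment over all features, where 0 features passed and the lowest limma adjusted p of a member was 0.214, for Slc2a1. Of the 8 genes, 3 were higher in DPG and 5 were lower, with a median log2 fold change of -0.12, against 0.0035 over all features. The median size of the 8 fold changes was 0.27 on the log2 scale, against 0.11 over all features. For 4 of the 8 genes the DPG range lay wholly outside the control range (Slc5a2, Slc2a1, Slc2a2 and Slc2a5), as it did for 19.7% of all features. The genes were named with earlier results of these arrays known, so these shares are descriptions.

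**Figure D1:**
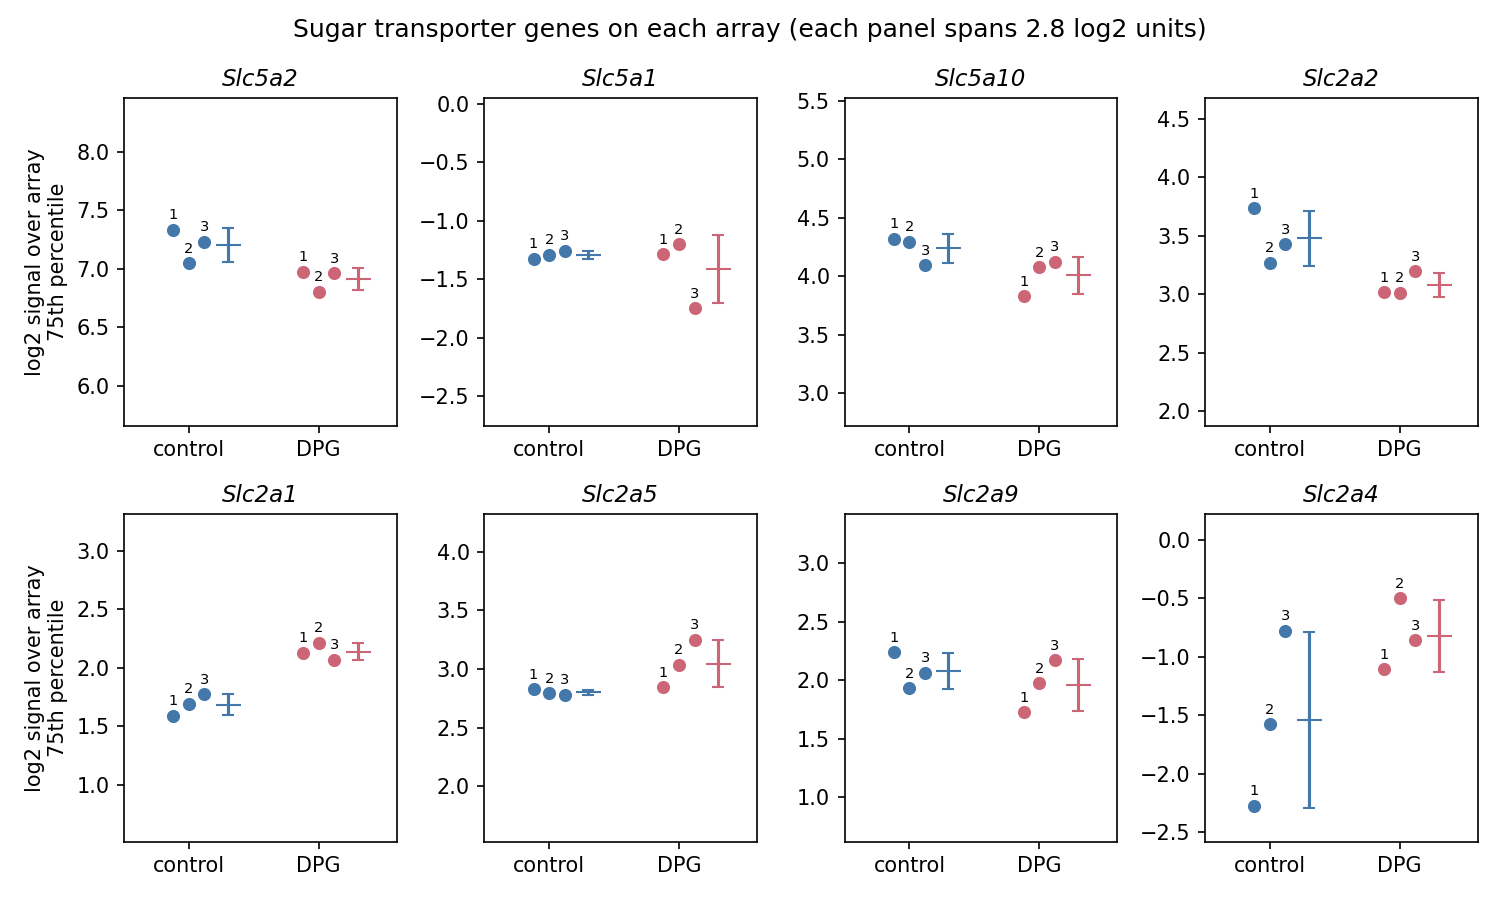
Log2 signal of each gene's brightest probe over the 75th percentile of the array (y axis) in the 3 control and 3 DPG arrays (points numbered by animal), with the group mean and SD as bars beside them. The DPG points of Slc2a1 lie above all control points, those of Slc5a2 and Slc2a2 lie below all control points, and the control points of Slc2a4 are the most widely spread (SD 0.75).

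The 250 bases before the RefSeq gene start are shown for the 3 genes past the unadjusted threshold. They come from RefSeq windows of the build GRCr8 and are read 5′ to 3′ along the gene, at chr5:138002272-138002521 on the plus strand for Slc2a1, chr2:113540120-113540369 on the plus strand for Slc2a2 and chr1:192277371-192277620 on the plus strand for Slc5a2. Capitals mark matches, on either strand, to ACGTG (the core of hypoxia response elements) or GGGCGG (a GC box).
Slc2a1: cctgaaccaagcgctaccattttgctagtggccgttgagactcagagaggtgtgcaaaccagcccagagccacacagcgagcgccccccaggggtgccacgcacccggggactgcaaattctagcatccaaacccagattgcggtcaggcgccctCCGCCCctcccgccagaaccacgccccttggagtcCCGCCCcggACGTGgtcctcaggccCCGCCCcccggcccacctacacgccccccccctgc
Slc2a2: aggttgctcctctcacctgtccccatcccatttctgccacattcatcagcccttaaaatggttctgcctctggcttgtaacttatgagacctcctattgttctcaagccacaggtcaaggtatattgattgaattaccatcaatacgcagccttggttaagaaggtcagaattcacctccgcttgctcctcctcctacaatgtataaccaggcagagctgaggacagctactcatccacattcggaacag
Slc5a2: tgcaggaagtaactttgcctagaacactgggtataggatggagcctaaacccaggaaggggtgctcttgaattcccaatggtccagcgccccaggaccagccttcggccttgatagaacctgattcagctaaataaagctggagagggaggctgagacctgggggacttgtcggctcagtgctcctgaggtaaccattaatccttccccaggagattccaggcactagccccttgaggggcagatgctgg
The Slc2a1 window held 3 matches to the GC box, at 95, 60 and 35 bases before the start, and 1 to ACGTG, at 51 bases before it. The windows of Slc2a2 and Slc5a2 held no match to either motif. Of the other 4 members with a window, Slc5a1 held 2 overlapping matches to ACGTG, at 200 and 199 bases before the start, and Slc5a10, Slc2a5 and Slc2a9 held none of either. Among all 33469 RefSeq windows of this length, 30.5% held the GC box and 16.6% ACGTG. The arrays measured transcripts and not binding, so the matches describe the letters of these windows alone.

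Slc5a2 encodes SGLT2, the apical sodium-glucose cotransporter of the convoluted tubule that takes up most filtered glucose. Its brightest probe read 7.34, 7.05 and 7.23 in controls 1 to 3 and 6.98, 6.81 and 6.96 in DPG 1 to 3 (log2 signal over the 75th percentile). Every DPG array lay below every control array, with DPG 2 the lowest of the 6. The log2 fold change was -0.29 ± 0.10 (limma SE, n = 3 per group), with a 95% interval from -0.54 to -0.05 and a limma adjusted p = 0.353. Its further probes gave -0.19 ± 0.08 and -0.26 ± 0.09, and on both of them the groups did not overlap either. Of its 3 probes, A_44_P996242 had an interval that held 0, from -0.39 to 0.02.

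Slc5a1 encodes SGLT1, the high-affinity sodium-glucose cotransporter that recovers the remaining glucose in the straight tubule. Its brightest probe read -1.33, -1.29 and -1.26 in controls 1 to 3 and -1.29, -1.20 and -1.75 in DPG 1 to 3. DPG 1 and DPG 2 lay within or above the control range, and DPG 3 was the lowest of the 6 arrays. For Slc5a1 the log2 fold change was -0.12 ± 0.15 (limma SE, n = 3 per group, adjusted p = 0.770), with a 95% interval from -0.49 to 0.25. The second probe placed DPG 3 lowest as well, at -2.49 against -1.86 to -2.04 on the other 5 arrays. Without DPG 3 the fold change of the brightest probe was 0.05, so the sign of the Slc5a1 value rested on that animal.

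Slc5a10 encodes SGLT5, a kidney sodium-coupled carrier for mannose and fructose, and was measured by 1 probe. It read 4.32, 4.30 and 4.10 in controls 1 to 3 and 3.83, 4.08 and 4.12 in DPG 1 to 3. DPG 1 was the lowest array, while DPG 3 read above control 3, so the groups overlapped. This gave a log2 fold change of -0.23 ± 0.11 (limma SE, n = 3 per group, adjusted p = 0.465), with a 95% interval from -0.50 to 0.04. Without DPG 1 it was -0.14, over 1.5 times smaller.

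Slc2a2 encodes GLUT2, the low-affinity carrier through which glucose leaves the convoluted tubule cell toward the blood. Its brightest probe read 3.73, 3.27 and 3.43 in controls 1 to 3 and 3.02, 3.01 and 3.20 in DPG 1 to 3. All DPG arrays lay below all control arrays, with control 1 the highest, and the nearest arrays were control 2 and DPG 3. The log2 fold change was -0.40 ± 0.13 (limma SE, n = 3 per group, adjusted p = 0.350), with a 95% interval from -0.73 to -0.07. The further probes of Slc2a2 read lower in DPG by -0.46 ± 0.11 and -0.55 ± 0.15, and the groups did not overlap on any of the 3 probes. Probe A_44_P226612 read 1.34, 1.38 and 1.37 in DPG 1 to 3 (SD 0.02, n = 3), against 2.03, 1.63 and 1.79 in controls 1 to 3 (SD 0.20, n = 3). The limma fit of every probe on its own gave adjusted p = 0.347, 0.283 and 0.294 for the 3 probes of Slc2a2.

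Slc2a1 encodes GLUT1, the widely expressed glucose carrier that sits basolaterally in the straight tubule and further along the nephron, and also in endothelium. Its single probe read 1.59, 1.69 and 1.77 in controls 1 to 3 and 2.13, 2.21 and 2.07 in DPG 1 to 3. Every DPG array lay above every control array. The log2 fold change was 0.45 ± 0.08 (limma SE, n = 3 per group, adjusted p = 0.214), with a 95% interval from 0.26 to 0.65. By unadjusted p it stood in place 172 among the 29647 features. No second probe was matched to Slc2a1, so its value rests on 1 probe.

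Slc2a5 encodes GLUT5, the fructose carrier, which in the rat kidney sits in the brush border of the straight tubule. Its brightest probe read 2.83, 2.79 and 2.78 in controls 1 to 3 (SD 0.02, n = 3) and 2.85, 3.04 and 3.25 in DPG 1 to 3 (SD 0.20, n = 3). The groups did not overlap, although DPG 1 lay only just above control 1. Slc2a5 thus had a log2 fold change of 0.25 ± 0.11 (limma SE, n = 3 per group, adjusted p = 0.444), with a 95% interval from -0.03 to 0.52. The second probe gave 0.21 ± 0.10, again with DPG 3 as the highest array. Without DPG 3 the fold change of Slc2a5 was 0.14, over 1.5 times smaller. It was larger without DPG 1, at 0.34, and with normexp background correction, at 0.34. Slc2a5 was past the unadjusted threshold in 3 of 18 alternative fits, those 2 among them, but not in the main fit.

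Slc2a9 encodes GLUT9, which carries urate across the tubule wall more readily than sugar. Its brightest probe read 2.24, 1.93 and 2.06 in controls 1 to 3 and 1.73, 1.97 and 2.17 in DPG 1 to 3. The groups overlapped, and DPG 1 was the lowest array on this probe and on the dimmer second one. For Slc2a9 the log2 fold change was -0.12 ± 0.14 (limma SE, n = 3 per group, adjusted p = 0.75), with a 95% interval from -0.46 to 0.22. The second probe gave -0.19 ± 0.18. Without DPG 1 the fold change of the brightest probe was -0.0069.

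Slc2a4 encodes GLUT4, the insulin-responsive carrier known mainly from muscle and fat. Its brightest probe read -2.27, -1.57 and -0.78 in controls 1 to 3 (SD 0.75, n = 3) and -1.11, -0.50 and -0.86 in DPG 1 to 3 (SD 0.31, n = 3). Control 3 lay above DPG 1 and DPG 3, so the groups overlapped, and the spread among the controls was the widest of the 8 genes. Slc2a4 thus had a log2 fold change of 0.72 ± 0.39 (limma SE, n = 3 per group, adjusted p = 0.507), with a 95% interval from -0.23 to 1.67. It was 0.35 without control 1 and 1.1 without control 3. The second Slc2a4 probe, which exceeded background clearly in 1 control and all 3 DPG rats, gave 0.82 ± 0.33 with overlapping groups. Of 9 adipocyte markers 7 were measured. Above 0 were 3 of them (Fabp4, Cidec and Retn), all past an unadjusted p of 0.05, against 6.68% of all features higher. Below 0 were 4, 1 of them past it, against 5.7% of all features lower. Fabp4 and Retn were dim, with control means of -3.73 and -6.33, where the dimmer Slc2a4 probe had -5.89. The mean shift of the 7 markers counts dim and bright probes alike. It was 0.48, 0.12 and 0.60 in DPG 1 to 3, against -0.13 to 0.06 in the controls. The median log2 fold change of the 7 markers lay on the other side of 0, at -0.16. The groups overlapped for Fabp4 and Cidec, and did not for Retn. The summed linear signal of these markers ranged from 3.95 to 4.33 times the 75th percentile in the controls and from 3.79 to 5.18 in DPG. Among them Fabp4, a fatty acid binding protein gene, had 1.89 ± 0.70 and Adipoq, which encodes adiponectin, -0.45 ± 0.14, while the leptin gene Lep was not well above background on any array. Of 8 muscle markers 5 were measured, with summed signals from 0.93 to 1.08 in the controls and from 0.85 to 1.1 in DPG. The part of fat or muscle RNA in the Slc2a4 value was not tested.

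**Figure D2:**
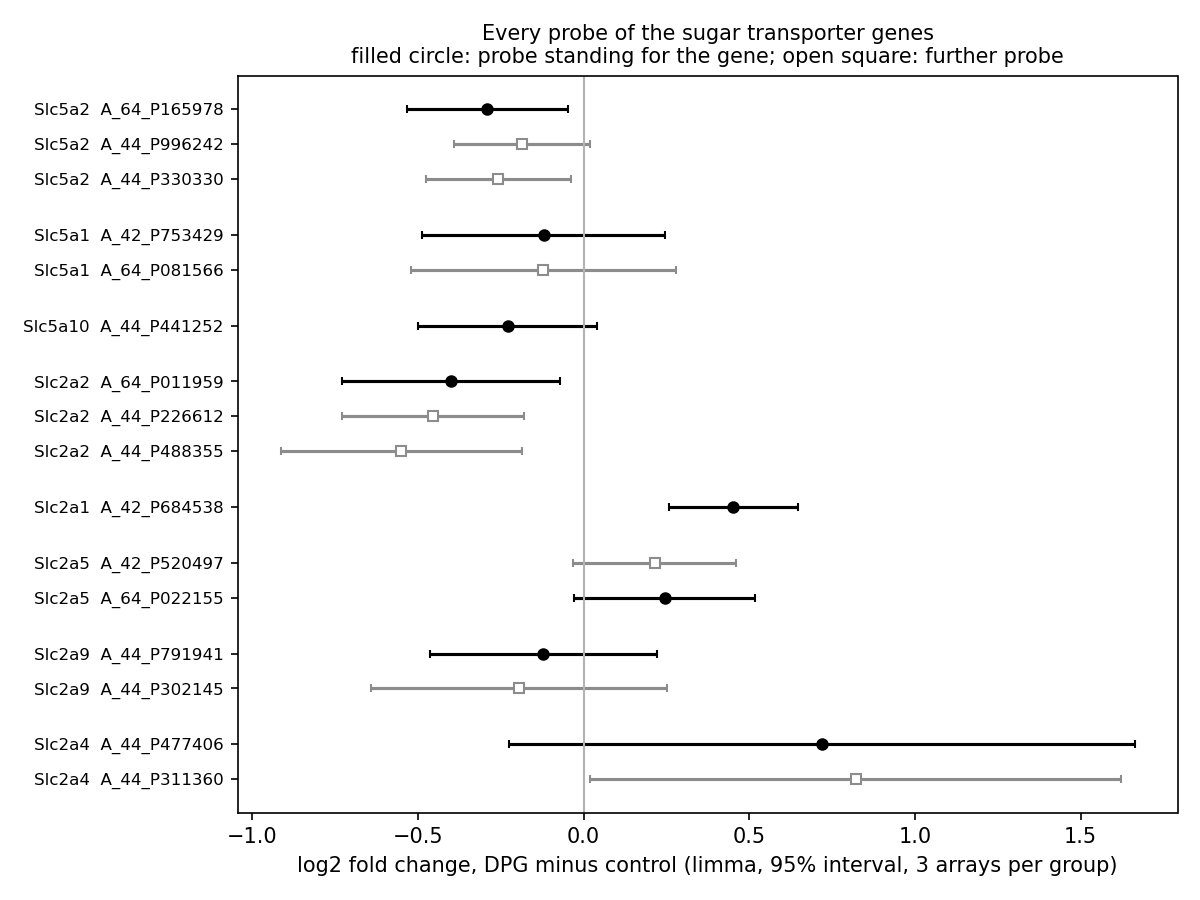
Log2 fold change of DPG over control (x axis) with its 95% interval from limma for each of the 16 probes, grouped by gene, with filled circles for the probe that stands for the gene. The probes of each gene lie on the same side of 0, and 7 intervals do not reach 0, those of the 3 Slc2a2 probes, 2 Slc5a2 probes, the Slc2a1 probe and the dimmer Slc2a4 probe.

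The probes of a gene had the same sign in all 6 genes with several probes. Over the 16 probes, 7 were past an unadjusted p of 0.05 in the limma fit of every probe on its own, against 12.4% of all 40383 probes tested. These were the 3 probes of Slc2a2, 2 of the 3 of Slc5a2, the probe of Slc2a1 and the dimmer probe of Slc2a4. Without the dimmer Slc2a4 probe, which passed the filter on dim probes through the DPG group alone, 6 of the 15 probes that were well above background on all 6 arrays were past that threshold. The groups did not overlap on 9 of the 16 probes, against 19.7% of all probes tested. Probes of 1 gene read the same RNA and are no replicates of each other.

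Slc5a2 and Slc2a2 belong to the convoluted tubule, and other markers of that part were lower in the same arrays. Of 10 convoluted tubule markers, none of them among the 8 genes, 9 had a log2 fold change below 0, and 3 of these were past an unadjusted p of 0.05 (against 5.7% of all features lower at that threshold). Their median was -0.25, and -0.14 with normexp background correction. Slc5a12, a sodium-lactate cotransporter gene, had -0.29 ± 0.08, Slc34a3, a phosphate transporter gene, -0.30 ± 0.09, and Slc4a4, which encodes the basolateral bicarbonate exit carrier, -0.30 ± 0.10. The mean shift of the 10 markers was -0.21, -0.19 and -0.20 in DPG 1 to 3, against -0.08 to 0.07 in the controls. Their summed linear signal, which the brightest probes dominate, ranged from 589.7 to 641.3 in the controls and from 521.6 to 588.1 in DPG. The part of these markers in the Slc5a2 and Slc2a2 values was not tested.

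Markers of the straight tubule, the place of Slc5a1, Slc2a1 and Slc2a5, read the other way. Of 9 listed, 8 were measured, 7 had a log2 fold change above 0 and 6 of these were past an unadjusted p of 0.05 (against 6.68% of all features higher at that threshold), with a median of 0.34. Slc7a13, an aspartate and glutamate carrier gene, had 0.78 ± 0.16, and Slc6a18, a glycine transporter gene, 0.43 ± 0.12. Their mean shift was 0.37, 0.30 and 0.33 in DPG 1 to 3, against -0.14 to 0.13 in the controls, and their summed linear signal ranged from 885.8 to 1104 in the controls and from 1281 to 1346 in DPG. Slc5a8, a monocarboxylate cotransporter gene, read -0.39 ± 0.22 and was the exception of the 8. Slc5a1, at -0.12, and Slc2a1 and Slc2a5, at 0.45 and 0.25, thus lay on both sides of 0 in the same arrays, and the part of the straight tubule markers in these values was not tested.

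Markers of blood and vessel cells gave smaller medians. Red blood cell markers had a median of 0.09 with 4 of 5 measured members above 0, and endothelial markers one of -0.05 with 3 of 7 above 0. The summed signal of the red blood cell markers ranged from 839.2 to 990.9 in the controls and from 884.2 to 1030 in DPG. Thick ascending limb and distal tubule markers had a median of 0.25, and 4 of 7 were higher at an unadjusted p of 0.05. Beside this and the counts that follow, 6.68% of all features were higher and 5.7% lower at that threshold. The thick ascending limb marker Cldn16, a tight junction gene, had 0.70 ± 0.06 (limma adjusted p = 0.125). No feature had a lower adjusted p, but Benjamini-Hochberg adjustment gave this value to several features alike. Podocyte markers had a median of -0.22 with 0 of 7 above 0 and 3 lower at that threshold, and collecting duct markers one of -0.19 with 2 of 8 lower. Of the endothelial markers 2 were higher at that threshold, and of the red blood cell and the smooth muscle and fibroblast markers 0 were past it. The median was 0.09 for smooth muscle and fibroblasts, 0.16 for leukocytes (1 of 6 higher) and 0.23 for adrenal cortex (1 of 3 higher). The higher leukocyte marker, Cd3e, was dim, with a control mean of -5.34, and its groups overlapped. The part of these cells in the transporter values was not tested. All 10 convoluted and 8 straight tubule markers measured had group means above the 75th percentile, from 0.12 (Slc9a3) to 8.61 (Slc3a1) in the controls.

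The remaining genes of the Slc5 and Slc2 families went both ways. Of 16 listed, 11 were measured, 5 with a log2 fold change above 0 and 6 below, and the median was -0.0084, but 0.23 without control 3 and -0.11 without DPG 2. At an unadjusted p of 0.05, 3 were higher (Slc2a13, Slc2a12 and Slc5a6) and 2 lower (Slc5a12 and Slc2a8), against 6.68% and 5.7% of all features. Slc5a12 and Slc5a8 are also tubule markers given above, so they are counted in both lists. Slc2a13, which encodes the proton-coupled myo-inositol carrier HMIT, had 0.66 ± 0.11 (limma adjusted p = 0.214), with controls at -0.02, 0.30 and -0.06 and DPG at 0.75, 0.79 and 0.67. Slc2a12, which encodes the glucose carrier GLUT12, had 0.94 ± 0.29 (limma adjusted p = 0.332), with controls at 0.06, 0.51 and 0.54 and DPG at 0.74, 1.82 and 1.38. Slc2a12 was not past the unadjusted threshold without control 1 (0.78) or DPG 3 (0.90). Slc2a8, which encodes the intracellular carrier GLUT8, had -0.26 ± 0.07, with no overlap between the groups. Slc5a6, a vitamin transporter gene named after its values were seen, had 0.22 ± 0.08. Slc2a3, the neuronal glucose carrier gene, Slc2a10 and Slc5a7 were not well above background on any array.

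Of 23 listed regulators and partners of renal glucose transport, 20 were measured. Of these, 11 had a log2 fold change above 0 and 9 below, with a median of 0.06. At an unadjusted p of 0.05, 1 of the 20 was past the threshold, a smaller share than the 12.4% of all features. That gene was Basp1, a membrane-associated protein that can act as a transcriptional corepressor, with 0.71 ± 0.10 (limma adjusted p = 0.211). Hnf4a, a nuclear receptor that drives proximal tubule genes, had -0.14 ± 0.11, and -0.05 without DPG 1. Its 4 probes ran from -0.26 to -0.14, and their mean gave -0.17, which was past the unadjusted threshold. Pdzk1ip1, the small membrane partner that activates SGLT2, had 0.11 ± 0.11, and 0.01 without control 2. The scaffold gene Pdzk1 had -0.11 ± 0.08, and -0.05 without control 1 but -0.20 with normexp, where it was past the unadjusted threshold. Txnip, a glucose-induced inhibitor of glucose uptake, had 0.19 ± 0.15, and 0.11 without DPG 2 or 0.33 without DPG 3. Hif1a, the hypoxia-inducible factor gene, had 0.13 ± 0.09, with probes on both sides of 0, and 0.05 without control 3.

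All 30 listed enzymes of glucose and fructose metabolism were measured, 13 above 0 and 17 below, with a median of -0.03. At an unadjusted p of 0.05, 4 were higher and 4 lower, against 6.68% and 5.7% of all features. Pfkp, the platelet-type phosphofructokinase of glycolysis, had 0.46 ± 0.07 (limma adjusted p = 0.214), close in size to Slc2a1. Fbp2, a fructose bisphosphatase of muscle type, had -0.44 ± 0.09. Khk, the ketohexokinase that phosphorylates the fructose that Slc2a5 brings in, had 0.22 ± 0.06 with no overlap between the groups, but 0.10 with normexp, where it was not past the unadjusted threshold. Sord, whose enzyme makes fructose from sorbitol, is outside the naming rule and had -0.23 ± 0.08, also with no overlap. Among the enzymes of gluconeogenesis, Pck1 had -0.29 ± 0.09 (not past the unadjusted threshold without control 1, DPG 1 or DPG 2, at -0.26, -0.25 and -0.25). Fbp1 had -0.05 ± 0.06, and -0.20 on its second probe. G6pc1, which frees the glucose that leaves through Slc2a2, had 0.03 ± 0.11, with probes on both sides of 0.

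Of 15 listed urate handling genes besides Slc2a9, 12 were measured, 5 above 0 and 7 below, with a median of -0.05, but 0.02 with the mean of each gene's probes and -0.11 without control 2. At an unadjusted p of 0.05, 2 were higher and 3 lower, against 6.68% and 5.7% of all features. Slc22a13, an organic anion transporter gene, had 0.69 ± 0.14, and its 3 probes ran from 0.69 to 2.57. Its brightest probe, which gave the 0.69, was itself dim (control mean -2.40), and the 2.57 came from a dimmer one. Slc22a7, also one of the straight tubule markers, had 0.75 ± 0.23 (0.62 and not past the unadjusted threshold without DPG 1). Slc17a4 had -0.54 ± 0.15 and Slc22a8 -0.23 ± 0.07, the latter not past that threshold without control 1, control 3, DPG 1 or DPG 3 (-0.20 to -0.22). The second Slc22a8 probe read -0.34, and the mean of its probes gave -0.29, past that threshold. Slc22a12, which encodes the apical urate carrier URAT1, had 0.24 ± 0.11 with overlapping groups, and was not past the unadjusted threshold. Its 3 probes ran from 0.24 to 0.32, and their mean gave 0.28, which was past it.

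**Figure D3:**
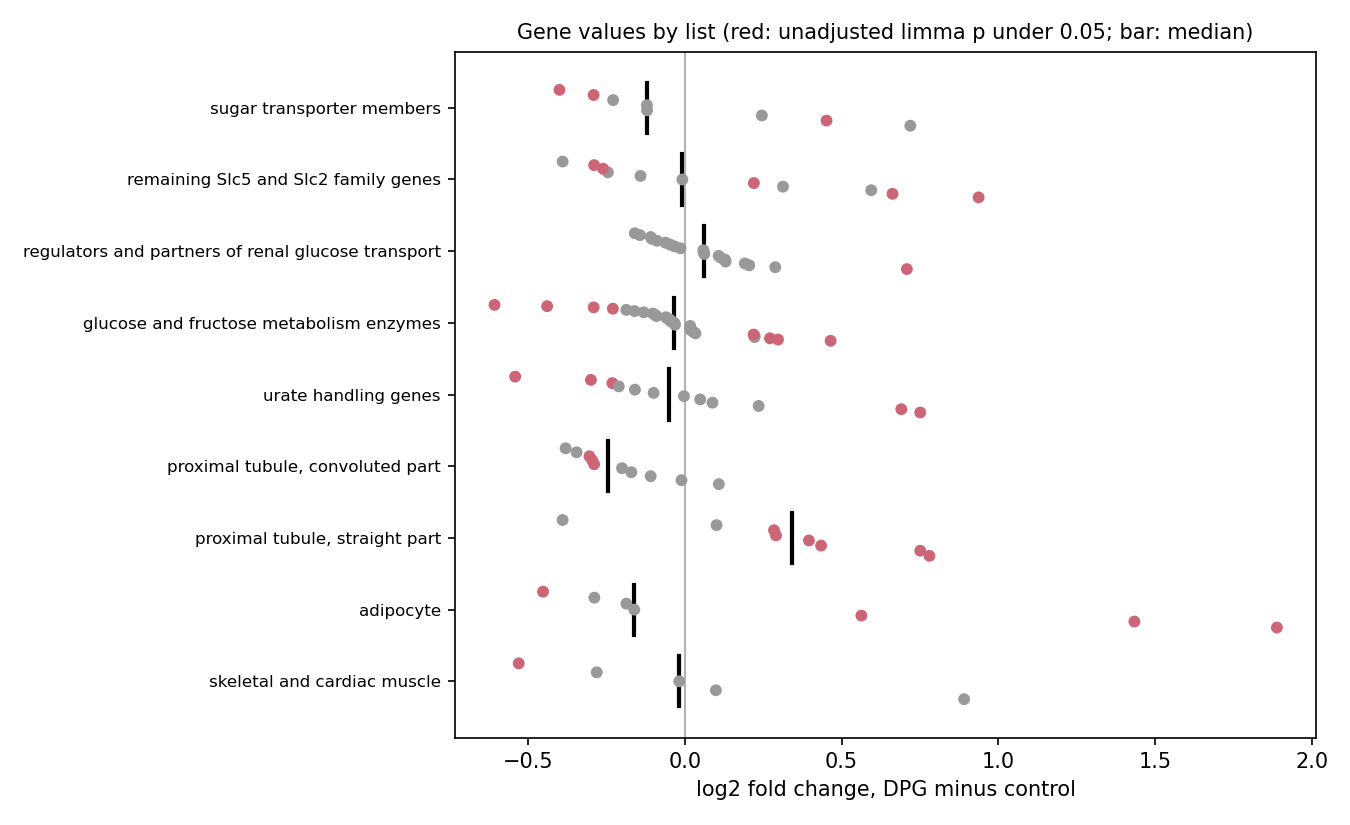
Log2 fold change of DPG over control (x axis) of every measured gene in the 8 transporter genes, the 4 lists of related genes and 4 marker lists (rows), with red for an unadjusted limma p under 0.05 and a bar at the median. The convoluted tubule markers centre on -0.25 and the straight tubule markers on 0.34, while the 8 transporters spread from -0.40 to 0.72.

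The genes whose 6 values ran closest to those of a member were taken by the smallest root mean square difference of log2 deviations from the control mean, over 6 arrays. For Slc2a1 they were Notch4, a Notch receptor gene of endothelium (difference 0.03), Akr1c12l1, an aldo-keto reductase gene (0.04), and Arfgap3 (0.04), with log2 fold changes of 0.45, 0.45 and 0.40. A second probe of Arfgap3 read 0.13. For Slc5a2 they were Prodh2, a hydroxyproline dehydrogenase gene (0.04), Timp4 (0.04) and Hdhd3 (0.04), with log2 fold changes of -0.29, -0.32 and -0.32. For Slc2a2 they included Myrf (0.05) and Dagla (0.07), with log2 fold changes of -0.36 and -0.39. These likenesses are descriptions over 6 arrays, with no test.

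**Figure D4:**
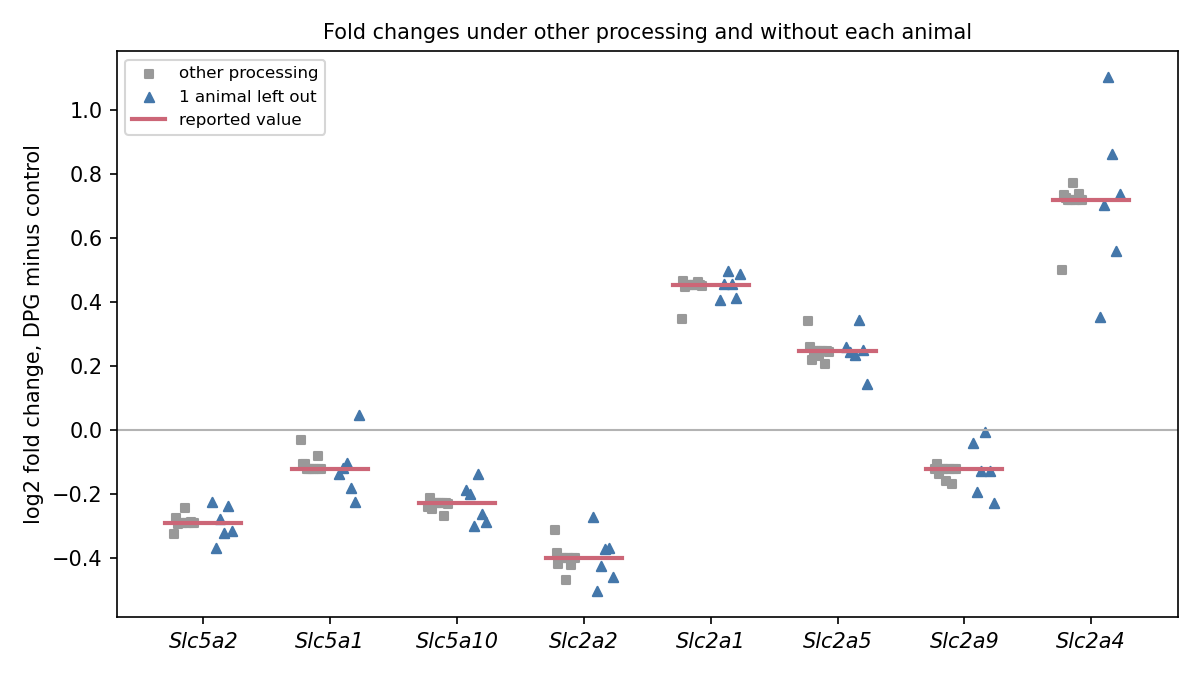
Log2 fold change of DPG over control (y axis) of each gene as reported (red line), under 12 other ways of processing the 6 arrays (grey squares) and with 1 animal left out (blue triangles). Slc2a1 stays between 0.35 and 0.50 and Slc2a2 between -0.50 and -0.27, while Slc5a1 has 1 value above 0 and Slc2a4 ranges from 0.35 to 1.1.

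Under the 18 alternatives, Slc2a1 was past an unadjusted p of 0.05 in 18, Slc2a2 in 16 and Slc5a2 in 15, with limma adjusted p from 0.155 to 0.477 for Slc2a1. The Slc5a2 value missed that threshold without control 1, control 3 or DPG 2 (log2 fold changes -0.23, -0.28 and -0.24), and the Slc2a2 value without DPG 1 or DPG 2 (-0.37 for each). Without DPG 2, Slc2a1 alone of the 8 genes was past it, so the count of 3 fell to 1.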

How the data were processed

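Slides were read out by Agilent Feature Extraction (10.7.1.1 in the file headers, 10.7 in the submitters' processing notes). The main values rest on the deposited processed spot intensity, which is linear, detrended, background-subtracted and not scaled between arrays, per the file headers; log2 values were computed here from this deposited signal. The normexp alternative (offset 50) used median pixel intensities, for the spot and its surroundings, per the file headers. The deposited table of the series holds linear values, the ratio of processed signal to an array constant close to its 75th percentile, with column medians from 0.108 to 0.114. It is uncentred and runs in the scanner signal's direction; the submitters' scaling is not given in the sources used.

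A probe was kept if it stood well above background throughout 1 group or both (40406 probes, less 23 with an outlier flag), and 0 were saturated. RefSeq genes of GRCr8 named 28206 probes by unversioned accession. The array design used another assembly, so no probe positions are given, and the coordinates of the printed windows are RefSeq's own on GRCr8. The brightest kept probe stood for a gene. The test was the two-sided moderated one of limma (version 3.58.1, R 4.3.3, with lmFit then eBayes; residual degrees of freedom 4, prior 1.95), with Benjamini-Hochberg adjustment over 29647 features at 0.05. Values written a ± b are log2 fold changes with limma's SE unless SD is named. With 3 rats a side, exact permutation has 0.1 as its smallest two-sided p. The fit was also run on simulated data with 200 genes changed, of which no outcome is given here.

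The members and lists were chosen with earlier results of these data known. Named genes are the members, up to 4 of each related list by smallest p, 10 set regulators and enzymes, and 3 nearest patterns per member past the unadjusted threshold; marker genes and others outside this rule were chosen after their values were seen. A few genes that the rule names are not reported here. Alternatives were normexp, median and quantile scaling, no filter, a filter on all 6 arrays, outlier spots retained, probes averaged per gene, probes tested singly, an intensity trend with robust variance, array weights, a replicate block, the submitters' own table, and each animal left out. Slide was not separable from group, so no fit with slide as a block exists.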

Additional observations from a re-analysis of the deposited data

How the results depend on the processing

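The 8 genes kept the sign of their log2 fold change in 143 of 144 values from 18 alternatives (12 on all 6 arrays, 6 with an animal left out), and none passed an adjusted p of 0.05. The exception was Slc5a1 at -0.12, which lay between -0.2258 and 0.0458 when animals were omitted in turn, changing sign without DPG 3. With an animal left out, the number of the 8 genes past an unadjusted p of 0.05 ranged from 1 (without DPG 2) to 4, and the number of features past an adjusted p of 0.05 ranged from 0 to 1 (1 without DPG 2). In the 12 alternatives on all arrays that number stayed at 0, and features past an unadjusted p of 0.05 numbered up to 5008, counted as probes. Slc2a4 read 0.50 with normexp against 0.72. Of 522 values of the 29 other genes named by rule and reported, 3 turned sign, all of G6pc1. That gene read 0.03, but -0.0065 with quantile normalization and lay between -0.0732 and 0.105 when animals were omitted in turn. The causes were not tested.

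The replicate numbers in the labels were not taken as pairs, since the deviations of same-numbered animals from their group means correlated at -0.02, -0.09 and -0.07 across features. With the replicate number as a block, 3 of the 8 genes were past an unadjusted p of 0.05, as without it, and 0 features passed after adjustment. Signal over background limits the second Slc2a4 probe, which exceeded background clearly in only 1 of the 3 controls.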

Other observations

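Of the Slc5 and Slc2 genes that were measured, the 3 known to carry myo-inositol, an osmolyte and membrane lipid precursor of kidney cells, all had a log2 fold change above 0 in DPG. They were grouped after their values were seen, and none passed the adjusted threshold. Slc2a13 (HMIT) had 0.66 ± 0.11 (limma SE, n = 3 per group) on its brightest probe and 0.62 ± 0.11 on its second. Slc5a3 (SMIT1), the sodium-coupled carrier that hypertonicity induces, had 0.59 ± 0.29, with controls at 2.36, 2.93 and 2.53 and DPG at 3.53, 3.49 and 2.59. DPG 3 lay within the control range on that probe and on the further Slc5a3 probes, which gave 0.72 ± 0.29 and 0.71 ± 0.28. Slc5a11 (SMIT2) had 0.31 ± 0.14 and 0.28 ± 0.11 on its 2 probes. In limma the adjusted p was 0.214, 0.473 and 0.433 for the brightest probes of Slc2a13, Slc5a3 and Slc5a11.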
